A study of Mus musculus with 2 samples.

Results

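The genes described here are 10 members of the Notch pathway in TUBO, an established mouse breast cancer line started from a mammary tumour driven by the rat Her2/neu transgene. They were taken from the count table by symbol, and all 10 were found among its 31017 genes. They are the receptor genes Notch1, Notch2, Notch3 and Notch4, the ligand genes Jag1, Jag2, Dll1 and Dll4, and the target genes Hey1 and Hes1. The study has 1 group of 2 libraries, replicate 1 and replicate 2, made from untreated cells kept as flat cultures on plastic in serum-containing medium. No condition is set against another, and what can be described is therefore how abundant each gene's RNA was. The line stands for 1 tumour model. Whether the replicates came from separate dishes is not given in the sources used here, so p-values and spread between them may be technical.

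Notch signalling runs between touching cells. A ligand of the Delta-like or Jagged family on one cell pulls on a Notch receptor of its neighbour, ADAM proteases and then the gamma-secretase complex cut the receptor, and the freed intracellular part enters the nucleus. There it joins the DNA-binding protein RBPJ and a Mastermind-like coactivator and switches on genes such as those of the HES and HEY repressors. In the mammary gland the pathway is known for its part in the choice between luminal and basal fate and in luminal progenitor cells.

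The libraries held 35453278 counts in replicate 1 and 34098259 counts in replicate 2. Levels are given as CPM, counts divided by the scaled library total, with scaling by the trimmed mean of M-values (TMM), and as CPM per kilobase of annotated exon (CPM per kb) wherever genes are compared with each other. Genes that reached 1 CPM in replicate 1 and in replicate 2 count as detected. The limit that a count of 0 allows is the level of 3 counts, 0.0842 CPM for replicate 1 and 0.0885 CPM for replicate 2, and covers counting error alone. All 7 luminal epithelial markers were detected, with a summed level of 5385 CPM in replicate 1 and 5213 CPM in replicate 2 and the keratin gene Krt18 highest at 847 CPM per kb. Of the 7 basal, 8 endothelial and 7 leukocyte markers none reached detection, and the sum of each list lay between 0.0561 and 1.03 CPM. The highest of each were the smooth muscle actin gene Acta2 at 0.268 CPM per kb, the endothelial adhesion gene Esam at 0.0952 CPM per kb and the B cell gene Cd79a at 0.0800 CPM per kb. Of 7 pericyte markers Mcam alone was detected (2.45 CPM per kb), and of 7 fibroblast markers Pdgfra alone (0.762 CPM per kb). Of the 8 endothelial markers 3 had no count, Cdh5, Kdr and Emcn, while Esam had 10 and 9 counts and Pecam1 6 and 8. Ptprc, Dcn and Rgs5 had no count either. In bulk RNA, fewer cells that express a gene and less RNA per cell cannot be told apart.

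Of the 10 Notch genes 8 were detected, against 37.7% of all genes in the table, noncoding genes included. The share among protein-coding genes alone was not computed. The detected ones were Notch1, Notch2, Notch3, Jag1, Jag2, Dll1, Hey1 and Hes1. Notch4 and Dll4 missed the minimum but had counts in both libraries. The levels formed a high range with 7 genes, from a mean of 10.7 CPM per kb upward, and a low range with 3 genes, Jag2, Notch4 and Dll4, none of them above 0.334 CPM per kb in either library. The median of the 11004 detected protein-coding genes was 7.99 CPM per kb.

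The sequences upstream of a high and a low receptor gene and of a high and a low ligand gene are shown so that the levels can be read beside the promoter. They come from RefSeq on GRCm38.p6 and start 250 bases before an annotated start. Each runs up to that start or to the first exon of the GENCODE gene model, 5′ to 3′, with CG dinucleotides in capitals.
Notch3, chr17:32166891-32167140, minus strand: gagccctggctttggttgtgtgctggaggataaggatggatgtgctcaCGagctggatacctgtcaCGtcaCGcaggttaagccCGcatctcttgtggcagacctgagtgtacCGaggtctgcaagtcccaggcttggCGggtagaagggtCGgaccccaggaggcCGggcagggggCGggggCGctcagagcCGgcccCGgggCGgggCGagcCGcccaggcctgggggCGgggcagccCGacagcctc
Notch4, chr17:34564045-34564267, plus strand: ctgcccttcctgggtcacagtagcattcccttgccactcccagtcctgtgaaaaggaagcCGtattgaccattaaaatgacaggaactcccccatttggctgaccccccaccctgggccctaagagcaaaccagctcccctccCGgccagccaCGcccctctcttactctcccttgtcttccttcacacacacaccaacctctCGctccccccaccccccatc
Dll1, chr17:15376933-15377182, minus strand: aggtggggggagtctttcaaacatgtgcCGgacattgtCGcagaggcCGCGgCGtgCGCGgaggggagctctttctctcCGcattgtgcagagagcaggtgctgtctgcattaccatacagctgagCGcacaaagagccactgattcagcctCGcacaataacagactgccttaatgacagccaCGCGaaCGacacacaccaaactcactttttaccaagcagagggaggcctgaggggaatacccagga
Dll4, chr2:119325534-119325783, plus strand: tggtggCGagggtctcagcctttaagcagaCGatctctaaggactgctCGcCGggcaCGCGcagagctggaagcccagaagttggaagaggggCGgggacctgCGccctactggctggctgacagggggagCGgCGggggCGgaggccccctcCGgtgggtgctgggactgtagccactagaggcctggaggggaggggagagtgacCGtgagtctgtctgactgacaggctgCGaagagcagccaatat
The 250 bases before the start held 17 CG dinucleotides for the high receptor gene Notch3 and 4 for the low receptor gene Notch4, both on chromosome 17. The median over all 32851 windows of this kind in the table was 6, and 92.1% of the windows held at least 1. For the ligands the counts were close, at 13 for the more upstream of 2 annotated Dll1 starts and 14 for Dll4, although these genes differed widely in level. The other windows held 16 CG dinucleotides for Notch1, 34 for Notch2, 20 for Jag1, 21 for the downstream Dll1 start and 54 for the low gene Jag2. All 250 bases of the Jag2 window lay within exons of its GENCODE gene model. So did 124 bases of the Jag1 window and 153 of the window at the downstream Dll1 start. Windows with more CG dinucleotides than the median belonged to genes of both the high and the low range. Among them was the window of the low gene Dll4, which held no base of such exons. Windows were matched for 8 of the 10 genes, all but Hey1 and Hes1. The letters TGGGAA, the core of the RBPJ motif, and the longer GTGGGAA that contains them were searched on both strands. Neither occurred in any of the 9 windows. Over all windows, 21.6% held TGGGAA and 5.42% held GTGGGAA. A difference from these shares was not tested, and 9 windows are too few to show one.

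**Figure D1:**
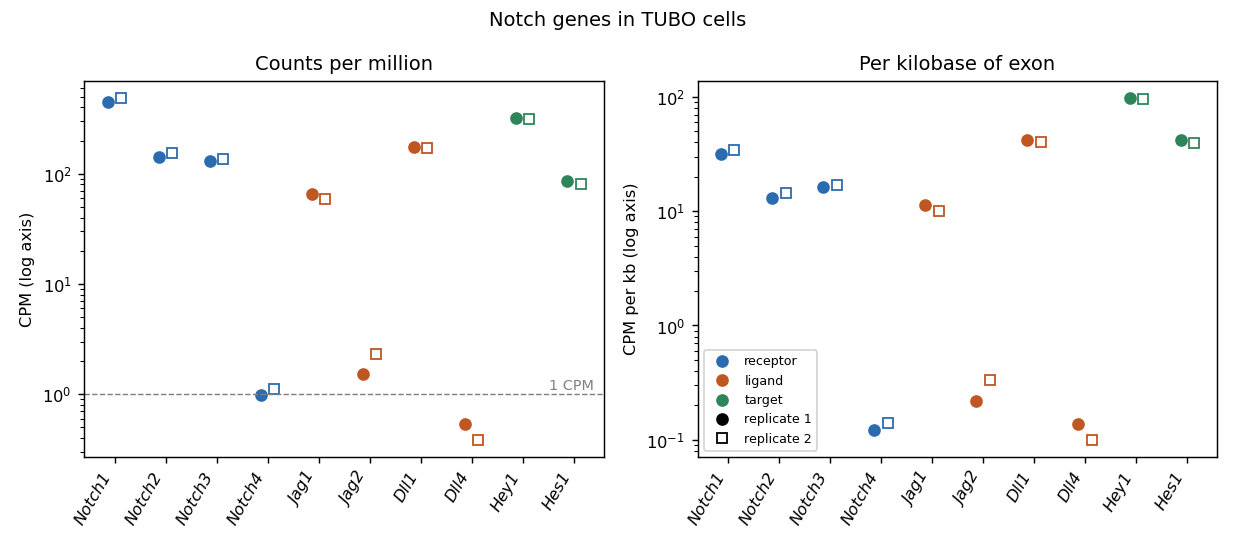
Level of each Notch gene in replicate 1 (filled circles) and replicate 2 (open squares), on the left in CPM and on the right in CPM per kb of exon, both on log axes, with the colour giving the role. The dashed line marks 1 CPM. Notch4, Jag2 and Dll4 lie between 0.383 and 2.33 CPM in both libraries, while the other 7 genes lie between 58.9 and 485 CPM.

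Among the receptors, Notch1, Notch2 and Notch3 were abundant and Notch4 was nearly absent. Notch1 (chromosome 2, 26457903 to 26516663, GRCm38), the receptor best known from T cell development and leukaemia, had 15915 counts in replicate 1 and 16440 in replicate 2. These gave 446 and 485 CPM, a mean of 466 ± 27.0 CPM (SD, n = 2) and 32.7 ± 1.90 CPM per kb, a level above that of 88.1% of the detected protein-coding genes. Both libraries put Notch1 above every other receptor.

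Notch3 (chromosome 17, 32120820 to 32166852), known for its role in vascular smooth muscle and in luminal progenitors of the mammary gland, had 4661 counts in replicate 1 and 4644 in replicate 2. Its mean was 134 ± 4.36 CPM and 16.5 ± 0.539 CPM per kb. Notch2 (chromosome 3, 98013527 to 98150361), a receptor with roles in bile duct and marginal zone B cell development, had 5023 and 5276 counts, a mean of 148 ± 10.4 CPM and 13.7 ± 0.961 CPM per kb. In plain CPM Notch2 stood slightly above Notch3 in both libraries, and per kb Notch3 stood above Notch2, at 16.2 and 16.9 against 13.1 and 14.4 CPM per kb in replicates 1 and 2. The ratio of Notch3 to Notch2 per kb was 1.21 ± 0.0450.

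Notch4 (chromosome 17, 34564268 to 34588503), a receptor mainly of endothelial cells and the site of mouse mammary tumour virus insertions in other mammary tumours, had 35 counts in replicate 1 and 38 in replicate 2. These gave 0.982 CPM (95% exact Poisson interval 0.684 to 1.37) and 1.12 CPM (0.793 to 1.54), so that replicate 2 lay above the detection minimum and replicate 1 just below it, with both intervals reaching across it. Notch1 was 251 ± 8.84 times as abundant as Notch4 per kb. The summed level of the 8 endothelial markers was 0.673 CPM (replicate 1) and 0.59 CPM (replicate 2). A link between these markers and the level of Notch4 was not tested.

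Within the class, Notch1 made up 51.8 ± 0.210% of the summed receptor level per kb, Notch3 26.2 ± 0.563%, Notch2 21.8 ± 0.345% and Notch4 0.206 ± 0.00810%. The exonic length of Notch1, 14232 bases over all annotated exons, was 1.5 times its longest coding transcript of 9488 bases, the largest such ratio in the set. With the longest coding transcript in place of all exons, the share of Notch1 was 61.3 ± 0.195%, that of Notch3 20.9 ± 0.467% and that of Notch2 17.6 ± 0.264%. The order of the 4 receptors was the same with both lengths.

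**Figure D2:**
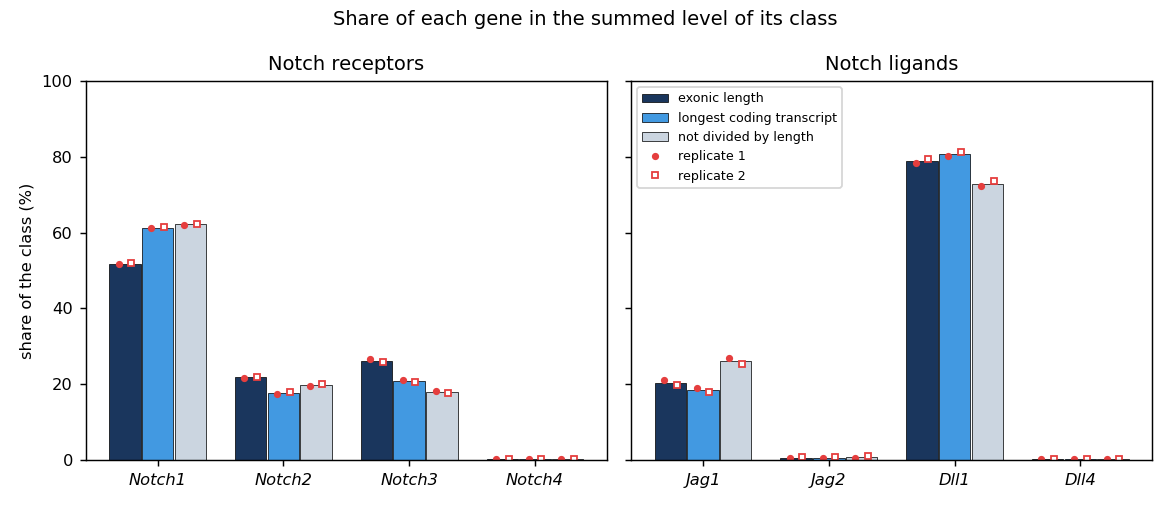
Share of each gene in the summed level of the 4 receptors (left) and of the 4 ligands (right), as a percentage. Bars are means over 2 libraries with the level divided by exonic length, by the longest coding transcript or not divided, and points are the single libraries. Notch1 and Dll1 hold the largest share of their class in each case, at 51.8 to 62.2% and 72.9 to 80.8%.

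Among the ligands, Dll1 was the most abundant, Jag1 followed, and Jag2 and Dll4 were far lower. Dll1 (chromosome 17, 15367354 to 15376872), a ligand known from somite formation and from mammary stem cells, had 6279 counts in replicate 1 and 5813 in replicate 2. Its mean was 174 ± 3.36 CPM and 41.2 ± 0.797 CPM per kb, above 91.2% of the detected protein-coding genes. Jag1 (chromosome 2, 137081456 to 137116644), the ligand whose loss in humans causes Alagille syndrome, had 2332 and 1997 counts, a mean of 62.2 ± 4.63 CPM and 10.7 ± 0.794 CPM per kb. Dll1 was 3.72 times as abundant as Jag1 per kb in replicate 1 and 4.02 times in replicate 2.

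Jag2 (chromosome 12, 112907819 to 112929776), a ligand with roles in limb and craniofacial development, had 54 counts in replicate 1 and 79 in replicate 2, or 1.51 CPM (1.14 to 1.98) and 2.33 CPM (1.84 to 2.90). It passed the detection minimum in both libraries and had the largest relative spread of the set, a coefficient of variation of 30.0%. Dll4 (chromosome 2, 119325784 to 119335962), the ligand of sprouting endothelium and of the thymic stroma, had 19 and 13 counts, or 0.533 CPM (0.321 to 0.832) and 0.383 CPM (0.204 to 0.655). Both values lay above the floor and below 1 CPM. Dll1 held 78.8 ± 0.792% of the summed ligand level per kb, Jag1 20.4 ± 0.920%, Jag2 0.531 ± 0.174% and Dll4 0.227 ± 0.0459%.

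Summed over their classes, receptors stood at 1.14 times the ligands per kb in replicate 1 and 1.28 times in replicate 2, a log2 ratio of 0.27 ± 0.12. The size of this ratio depended on the length used and was 3.15 ± 0.275 in CPM with no division by length.

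Both targets were abundant, and Hey1 had the highest level per kb of all 10 genes. Notch activity was not measured here, and these levels do not stand in for it. Hey1 (chromosome 3, 8663359 to 8667256), a repressor of the HEY family that lies downstream of Notch in heart and vessels, had 11351 counts in replicate 1 and 10628 in replicate 2. Its mean was 316 ± 3.59 CPM and 96.8 ± 1.10 CPM per kb, above 97.1% of the detected protein-coding genes, and its coefficient of variation of 1.14% was the smallest of the set. Hes1 (chromosome 16, 30064384 to 30067796), a repressor that keeps progenitors of many tissues from differentiating, had 3061 and 2745 counts, a mean of 83.4 ± 3.49 CPM and 40.9 ± 1.71 CPM per kb, above 91.1% of those genes. Hey1 exceeded Hes1 per kb by 2.31 times in replicate 1 and 2.42 times in replicate 2, a log2 ratio of 1.24 ± 0.04.

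The other genes of the HES and HEY families were low. Of 7 such genes Hes6 alone was detected, with 330 and 331 counts and 5.26 ± 0.196 CPM per kb. Hes6 encodes a family member that opposes Hes1 in neural cells. The remaining 6 had at most 4 counts in a library, among them Hes7, the somite clock gene, with 4 and 3 counts, Hes5 with 0 and 1, Hey2 with 1 and 0, and Heyl with none in either. Hey1 and Hes1 together therefore held nearly all of the family's level, with 67.6 ± 0.473% for Hey1, 28.6 ± 0.673% for Hes1 and 3.68 ± 0.205% for Hes6 per kb.

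Ordered by mean level per kb, the set ran Hey1, Dll1, Hes1, Notch1, Notch3, Notch2, Jag1, Jag2, Notch4 and Dll4. Neighbours were taken as separate when the lower library of the higher gene exceeded the higher library of the lower gene, which held for 7 of 9 pairs. The pairs that did not separate were Dll1 and Hes1, with 41.8 and 40.6 against 42.2 and 39.7 CPM per kb in replicates 1 and 2, and Notch4 and Dll4, with 0.122 and 0.139 against 0.138 and 0.0995 CPM per kb. The widest gap was between Jag1 and Jag2, whose means differed 38.7-fold. With lengths of the longest coding transcripts, 8 of 9 pairs separated, Hes1 and Notch1 moved above Dll1, and the pair that did not separate was Notch1 and Dll1. With 2 libraries an exact sign test cannot give a p below 0.5, so none is given for differences between genes.

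Of the 84 other pathway genes in 10 lists, 64 were detected, against 37.7% of all genes, noncoding genes included. The median of the detected pathway genes was 10.8 CPM per kb beside 7.99 CPM per kb over detected protein-coding genes. Over all 84, those not detected included, the median was 7.06 CPM per kb. No further ligand gene was detected among 4. Dll3 had 6 and 12 counts, Dlk2 7 and 7, Dner 3 and 0, and Dlk1 none. The ligands that reached detection were thus Dll1, Jag1 and Jag2 of the set.

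**Figure D3:**
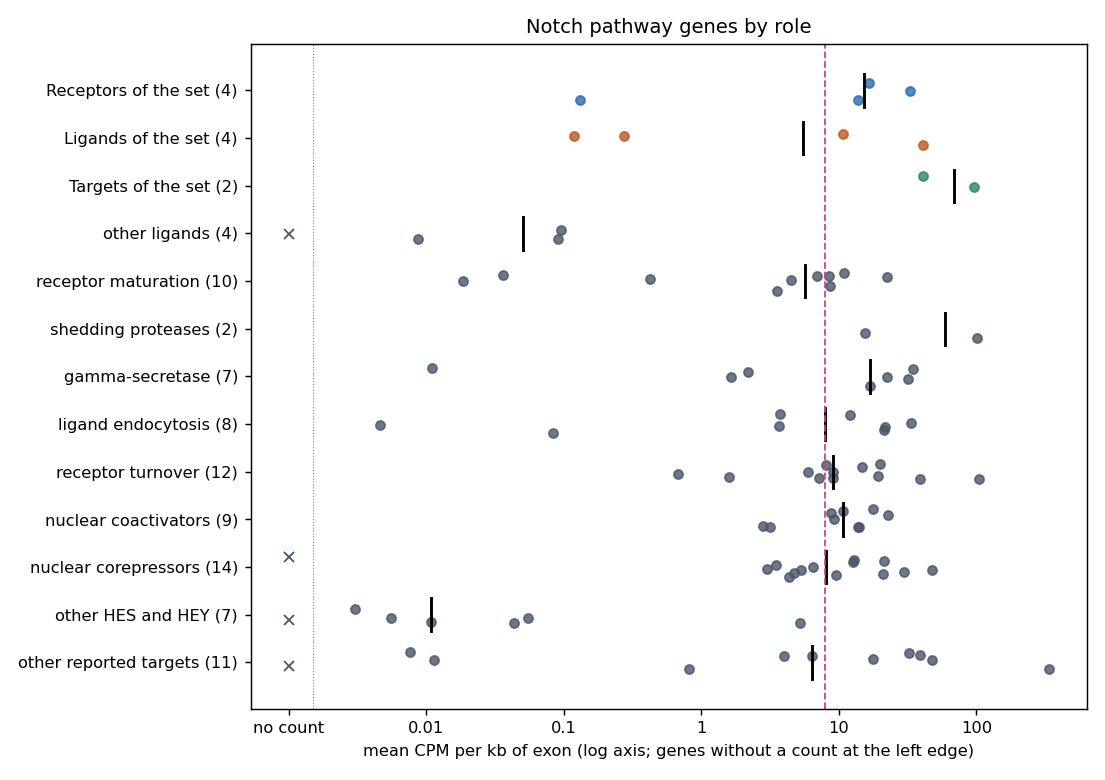
Mean level per kb of exon over 2 libraries, on a log axis, for the 10 Notch genes (coloured) and the 84 other pathway genes (grey), in rows by role with the number of genes in brackets. Black bars are row medians, the dashed line is the median of detected protein-coding genes at 7.99 CPM per kb, and crosses at the left edge are genes without a count. Among the grey rows, the medians of shedding proteases, gamma-secretase, receptor turnover, nuclear coactivators and nuclear corepressors lie above the line. The corepressor median does so only just. Among the coloured rows, the medians of receptors and targets lie above it. The receptor, gamma-secretase, receptor turnover, coactivator and corepressor rows also hold genes below the line. Other ligands and other HES and HEY genes lie mostly far below it.

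Genes for receptor processing were detected broadly. Of 10 genes for maturation and glycosylation of the receptor 7 were detected, led by the convertase gene Furin (22.3 ± 1.29 CPM per kb), which cleaves the receptor on its way to the surface, and the O-glucosyltransferase gene Poglut1 (10.9 ± 0.120 CPM per kb). The xylosyltransferase gene Gxylt2 was lowest per kb, with 7 and 4 counts. The Fringe genes, whose enzymes extend O-fucose on the receptor and change its response to Delta-like and Jagged ligands, were uneven. Rfng held 94.8 ± 0.192% of their summed level per kb, with 743 and 718 counts, against 41 and 33 counts for Lfng and 1 and 6 for Mfng.

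Both shedding proteases were detected, with Adam10 at 102 ± 2.13 CPM per kb and Adam17 at 15.6 ± 0.185 CPM per kb, a ratio of 6.54 ± 0.0591. Adam10, the protease of ligand-induced receptor cleavage, was thus at about the level of Hey1 per kb of exon. With the longest coding transcript Adam10 stood at 109 CPM per kb, below Hey1 at 130 CPM per kb. Of 7 gamma-secretase genes 6 were detected, led by nicastrin, Ncstn (34.8 ± 1.01 CPM per kb), and the small subunit gene Psenen (32.0 ± 0.0704 CPM per kb). With the longest coding transcript, Psenen at 57.6 ± 0.127 CPM per kb stood above Ncstn at 47.7 ± 1.38 CPM per kb. Of the summed level per kb of the 3 scaffold genes, Aph1a held 91.2 ± 0.531%. Aph1c was lowest with 2 counts in each library, and 18.4% of its 50-base windows are shared with Aph1b, so the split between these copies is uncertain.

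On the ligand side 6 of 8 genes for ubiquitination and endocytosis were detected, led by the epsin gene Epn1 (33.6 ± 0.525 CPM per kb) and the dynamin gene Dnm2 (21.8 ± 0.611 CPM per kb). The ubiquitin ligase gene Mib1, which primes ligands for uptake, followed at 21.3 ± 1.01 CPM per kb, and Neurl3 was lowest with 0 and 1 counts. All 12 genes for trafficking and turnover of the receptor were detected, from the Numb relative Numbl at 0.681 ± 0.0802 CPM per kb to the ubiquitin ligase gene Nedd4 at 104 ± 1.09 CPM per kb. Numb, the endocytic inhibitor of Notch, stood at 39.2 ± 1.38 CPM per kb.

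In the nucleus all 9 coactivator genes were detected, led per kb of exon by the acetyltransferase genes Kat2a (22.6 ± 0.419 CPM per kb) and Kat2b (17.6 ± 0.918 CPM per kb). Rbpj, the DNA-binding partner of every Notch receptor, was at the low end at 2.83 ± 0.143 CPM per kb, with 1242 and 1269 counts. Its exonic length of 12750 bases is 2.32 times its longest coding transcript, and 10.3% of its 50-base windows are shared with other genes, so this level is uncertain. With the longest coding transcript it was 6.59 ± 0.332 CPM per kb, above the coactivator gene Maml3 at 3.98 ± 0.0931 CPM per kb, and the gene Snw1 at 27.2 ± 1.03 CPM per kb stood above Kat2a at 25.9 ± 0.479 CPM per kb, so the order in this list depends on the length used. Of 14 corepressor genes 13 were detected, led by Ctbp1 (48.0 ± 0.701 CPM per kb) and Ncor1 (29.7 ± 0.306 CPM per kb), while Fhl1 had no count.

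Of 11 further genes reported as Notch targets in other settings 8 were detected, with the cyclin D1 gene Ccnd1 highest at 340 ± 9.47 CPM per kb and Gata3, a luminal transcription factor gene, at 47.6 ± 1.91 CPM per kb. Nrarp, a feedback inhibitor and direct target of Notch, had 396 and 327 counts and 4.02 ± 0.402 CPM per kb. Dtx1 stood at 0.816 ± 0.00940 CPM per kb. The T cell targets Ptcra and Il2ra had at most 2 counts in a library, and Snai2 had none. Most of these genes are regulated by other pathways as well, and their levels do not measure Notch activity.

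Between the 2 libraries, Notch1 and Notch2 were slightly lower in replicate 1 and Jag1 slightly higher, and no other gene of the set passed the test. An exact binomial test of each gene against counting error, adjusted by Benjamini-Hochberg over 13336 genes, called 8.13% of them, 595 higher and 489 lower in replicate 1. With total counts in place of TMM the split was 921 higher and 374 lower. Of the 10 Notch genes 3 were called. Abundant genes have the smallest relative counting error, and 28% of all tested genes that averaged at least 100 CPM were called. Of the 5 Notch genes at that level (Notch1, Notch2, Notch3, Dll1 and Hey1) 2 were called.

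The called genes were Notch1 (log2 ratio of replicate 1 to replicate 2 -0.12, adjusted p = 2.51e-11), Notch2 (-0.14, adjusted p = 3.44e-05) and Jag1 (0.15, adjusted p = 0.0111), by the exact binomial test. The ratios of Notch3 (-0.07), Dll1 (0.04), Hey1 (0.02) and Hes1 (0.09) had adjusted p between 0.166 and 0.572, and those of the low genes Jag2 (-0.62), Notch4 (-0.19) and Dll4 (0.48) between 0.122 and 0.879. With the dispersion of the same libraries taken into account, edgeR's exact test called none of the 10 and 15 of all genes (0.112%). An unadjusted p under 0.05 was given by edgeR to 3 of the 10, Notch2, Jag1 and Jag2, and to 644 of all genes. The dispersion in edgeR's test was estimated from the same 2 libraries that it compared, so that their difference is part of the dispersion and few calls can be made, and the absence of calls says nothing about stability. The binomial test compares these libraries and not conditions.

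**Figure D4:**
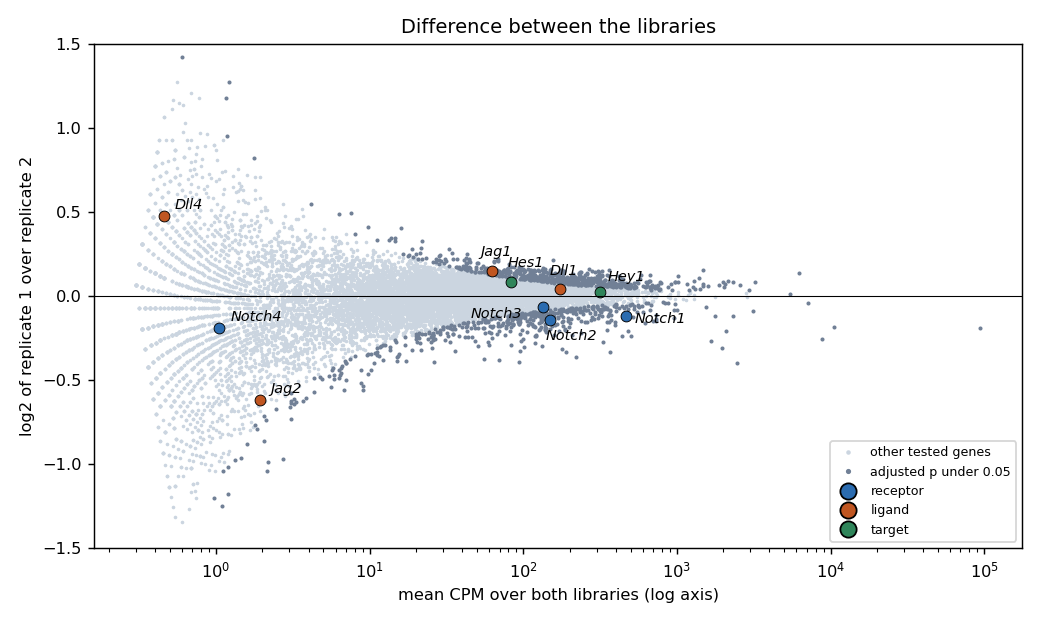
Log2 ratio of replicate 1 to replicate 2 against mean CPM (log axis) for the 13336 tested genes, with the Notch genes as large points coloured by role and genes past the exact binomial test in dark grey. The axis leaves out 2 genes beyond a log2 ratio of 1.5. The 4 receptors lie below 0 and Jag1, Dll1, Hey1, Hes1 and Dll4 above it, with Jag2 the lowest of the set at -0.62.

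The receptor genes are also the longest of the set, and the difference between libraries varied with length, though not in one direction along it. The median log2 ratio of replicate 1 to replicate 2 was -0.02 over the 2191 tested genes with 8 kb of exon or more, the class of all 4 receptors, 0.01 over the 3101 genes of 5 to 8 kb, the class of Jag1 and Jag2, 0.02 over the 3639 genes of 3 to 5 kb, the class of Dll1, Dll4 and Hey1, and -0.01 over the 4262 genes under 3 kb, the class of Hes1. In the long class 253 genes were called lower and 74 higher in replicate 1. Centred on the trend with length, the ratios were -0.07 for Notch1 (adjusted p = 0.000502), -0.13 for Notch2 (adjusted p = 0.00025) and 0.14 for Jag1 (adjusted p = 0.0357) by the exact binomial test. The same 3 genes were called. The trend that was taken off was -0.05 for Notch1, -0.01 for Notch2 and 0.02 for Jag1. Whether length accounts for the differences between libraries was not tested.

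Of the 84 other pathway genes 66 entered the test between libraries, of which 4 were called higher in replicate 1 and 4 lower, against 4.46% and 3.67% of all tested genes. The median log2 ratio was 0.02 over these genes and 0.00 over all tested genes. Higher in replicate 1 were Furin, the glycosyltransferase gene Eogt, Ccnd1 and Gata3, and among those lower were Mib1 and the acetyltransferase genes Ep300 and Crebbp.

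Some sequence of the set is shared with other transcripts. Of the 50-base windows of the transcripts, 3.76% of Notch2 were also found in Gm42820, an overlapping gene model on the same strand, and 0.0866% of Notch3 in other transcripts. Hey1, Hes1, Jag1, Jag2 and Notch4 shared none. Antisense models covered 16.1% of the windows of Dll1, 9.11% of Notch1, 4.85% of Notch3 and 4.33% of Dll4. The model opposite Dll1, A930024N18Rik, had 92 and 64 counts and the one opposite Notch3, Gm17276, had 24 in each library, small beside the counts of Dll1 and Notch3. No counts were given under the symbols of the models opposite Notch1 and Dll4 or of Gm42820, so their levels could not be checked. Whether counting used the strand is not given in the sources used here, so reads of overlapping genes on opposite strands may have been mixed.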

How the data were processed

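Per the labels' protocols, column-purified, DNase-treated RNA went into stranded mRNA libraries. Raw counts, 1 row for each gene symbol, are what the authors deposited. Tools listed in the submitters' processing notes, without roles, are STAR 2.7.9a, FastQC 0.11.9, Cell Ranger 3.0.0, featureCounts and R 4.1.1, and the build listed is mm10. Which annotation was counted, and whether by strand, is not stated there.

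Counts were divided by library totals with TMM factors of 1.005 and 0.995 (edgeR 4.0.16, R 4.3.3). Exonic lengths, the union of all exons of a gene, came from GENCODE M21 (GRCm38), where 98.3% of symbols had a single match. Genes kept by filterByExpr (13336) were tested between libraries with a two-sided exact binomial test (scipy 1.17.1) given the effective library sizes, after the script was tested on simulated counts, with Benjamini-Hochberg adjustment. Intervals of single counts are 95% exact Poisson intervals, and without molecular identifiers they cover counting error alone. edgeR's quasi-likelihood test needs groups to compare and was not run.

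The members and lists were chosen with earlier results of these data known. The rule for named genes took all members, the 2 highest and 1 lowest per kb of each pathway list, lists of up to 4 genes in full, genes without a count, and the highest marker of each cell type. Other names outside it (Aph1a, the Fringe genes, Mib1, Maml3, Snw1, Nrarp, Dtx1, small HES and HEY genes, Ptcra, Il2ra, the called pathway genes, the absent markers) were chosen after their values were seen. Some list genes are not reported here by name. No gene was named for a like pattern, since 1 group gives none. Alternatives were other scalings (DESeq2 1.42.0 size factors included), minimums, filters, lengths and each library alone. A planned comparison of protein sequences was not made, since no protein table was used here.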

Additional observations from a re-analysis of the deposited data

How the results depend on the processing

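The number of detected Notch genes was 8 with total counts, DESeq2 size factors and upper-quartile factors, and 7 to 9 over the other settings. Notch4 passed with a minimum of 0.5 CPM, in replicate 2 alone, and when Gm26917 and Gm42418 were left out of the totals, an alternative added after seeing the data that raised CPM of the members by 11.7%. Jag2 was lost at 5 CPM and at 1 CPM per kb. Levels in CPM moved by at most 0.113% with the 3 other planned scalings. With the longest coding transcript in place of exonic length, the share of Notch1 among receptors was 61.3%, that of Dll1 among ligands 80.8% and the log2 ratio of receptors to ligands 0.41. With no division by length these values were 62.2%, 72.9% and 1.65, and the log2 ratio of Hey1 to Hes1 was 1.92. Each library alone kept between 6 and 10 of the 10 genes at their place in the order, with Dll1 and Hes1 and Notch4 and Dll4 as the pairs that changed places in replicate 1. The exact binomial test called 3 Notch genes with TMM, the 3 other planned scalings, both other filters and centring on length (added after seeing the data), and 972 to 1295 of all genes before centring and 901 after it. edgeR's exact test called 15 genes and 0 Notch genes. One library alone allows no such test. No paired analysis was possible because there is 1 group. With 13 to 79 counts per library, differences between Jag2, Notch4 and Dll4 are limited by depth.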
